A study of Mus musculus with 4 samples.

Results

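Type I interferon-stimulated genes are the antiviral genes that cells switch on when interferon-α or interferon-β binds its receptor, and a list of 49 of them was followed through the 4 arrays of the series. The list held the receptor subunits, transcription factors, sensors, antiviral effectors and enzymes of the response, and its members were found by the gene symbol in the array annotation. A probe carried the symbol of 48 of the 49 members, among 23213 named genes on the array, and no probe was named for Ifi205. For a gene with several probes, the probe with the highest mean log2 signal over the arrays was used. All 48 members were well above background on every array, as were 12853 named genes in all.

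RNA came from bone marrow-derived macrophages (BMDMs) of C57BL/6J mice aged 10 weeks, grown for 6 days with L929 cell supernatant and then stimulated for 2 days. Wild-type BMDMs received 20 ng per ml IFN-γ with 100 ng per ml LPS (M1), 50 ng per ml IL-4 (M2), or the same IL-4 with 250 nM Torin1, an inhibitor that blocks the kinase mTOR in both of its complexes. Lamtor1-deficient BMDMs, labelled p18 (2400001E08Rik) -/-, received IL-4 alone. Lamtor1 anchors the Ragulator complex to lysosomes, where mTORC1 is activated, and the question of the design was what its loss or the inhibition of mTOR does to the expression profile of IL-4-stimulated BMDMs. According to the study's methods the mutant was a conditional knockout, Lamtor1 flox/flox with LysM-Cre, so that deletion depended on a promoter active in myeloid cells. Where the study gives the genotype of its wild-type BMDMs it is Lamtor1 flox/flox without Cre, and for the array the label says only wild type. Each condition was 1 culture on 1 array, so no difference between conditions had a replicate check, no test was possible, and all folds below describe these 4 arrays.

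As background, type I interferon binds a receptor made of Ifnar1 and Ifnar2, whose kinases Jak1 and Tyk2 phosphorylate Stat2. Stat2 and Irf9 belong to a complex that binds interferon-stimulated response elements in the promoters of the target genes, and several targets, such as Irf7, feed back to raise interferon production. Macrophages keep a low tonic level of this response at rest and a strong one after LPS, which drives secretion of interferon-β. IFN-γ uses its own receptor, and it is known to induce many of the same genes. The M1 stimulus combined IFN-γ with LPS, and their parts cannot be told apart on these arrays.

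The promoter sequence of these genes was searched for the letters of the response element. A RefSeq promoter table (GRCm38.p6, windows of 300 bases from 250 before to 50 after each transcription start) held a window for 36 of the 48 members. In 15 of these 36 (41.7%) a window contained GAAANNGAAA, the core of the element, on either strand, and in 10 of them before the start. Over the whole table the same letters stood in 3.99% of 27025 genes, before the start in 3.46% of these genes, and in 3.44% of 32851 windows. The following 7 upstream stretches are shown because their genes separate the arrays in different ways: Isg15 and Bst2 were high in M1 but not 2-fold apart among the IL-4 cultures, Ifit3 and Oas3 moved past 2-fold in opposite directions after Lamtor1 loss and Torin1, and Ifit1, Rsad2 and Slfn5 were above M2 with Torin1 but within 2-fold of it after Lamtor1 loss. Each reads 5′ to 3′ on the strand of its gene, with the matches in capitals.
Isg15: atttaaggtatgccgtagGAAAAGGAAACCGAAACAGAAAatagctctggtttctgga
Bst2: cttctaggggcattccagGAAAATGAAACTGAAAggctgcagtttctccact
Ifit3: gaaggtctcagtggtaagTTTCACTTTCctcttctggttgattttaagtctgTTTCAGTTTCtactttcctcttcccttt
Oas3: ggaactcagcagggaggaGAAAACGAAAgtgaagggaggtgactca
Ifit1: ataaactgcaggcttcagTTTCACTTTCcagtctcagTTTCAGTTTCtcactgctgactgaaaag
Rsad2: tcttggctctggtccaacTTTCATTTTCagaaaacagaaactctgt
Slfn5: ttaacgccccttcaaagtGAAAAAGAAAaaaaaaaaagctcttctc

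In Isg15 (chr4:156200857-156200914, minus strand) 3 overlapping matches began at positions -78, -72 and -66 from the transcription start, and in Bst2 (chr8:71537569-71537620, minus) 2 overlapping matches began at -130 and -124. Ifit3 (chr19:34583355-34583434, plus) and Ifit1 (chr19:34640767-34640831, plus) each held 2 separate matches, read on the opposite strand. Oas3 (chr5:120777707-120777752, minus), Rsad2 (chr12:26456545-26456590, minus) and Slfn5 (chr11:82951929-82951974, plus) had 1 each. A match stood in 3 of 9 members with a window that were 2-fold lower after Lamtor1 loss, in 5 of 9 that were 2-fold higher after Torin1 and in 9 of 19 past 2-fold in neither. The 15 members with a match had median log2 ratios of 3.30 (M1), -0.56 (Lamtor1-deficient) and 0.27 (Torin1) over M2, beside 2.23, -0.61 and 0.45 for the 21 without. A match is a run of letters and not a measured binding site, and its absence from a window of this length says nothing of the factor.

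The processed signal was divided by the 75th percentile of its array, which was 289 in M1, 595 in M2, 537 in the Lamtor1-deficient and 473 in the Torin1-treated culture, and the result is called the normalized signal. Of 55681 probes, 51.0% to 55.5% were well above background, no spot was saturated, and the arrays carried 1 scan time. Repeated spots of the same probe gave a technical SD of the log2 ratio of 0.0880 to 0.0998, which covers spotting and scanning but not the culture. Lamtor1 itself had a normalized signal of 50.9, 66.3, 1.55 and 74.4 in M1, M2, Lamtor1-deficient and Torin1-treated BMDMs, 42.7-fold lower in the mutant. Nos2, a marker of M1, was 1505-fold higher in M1 than in M2, and also 48.6-fold higher in the mutant and 42.6-fold higher after Torin1. All 7 macrophage markers were well above background on all arrays, with summed normalized signals of 401, 690.1, 467 and 539 in M1, M2, mutant and Torin1-treated BMDMs. Of these, Fcgr1, Emr1 and Cd14 were 31.2-, 5.95- and 3.63-fold lower in the mutant than in M2, and Fcgr1 and Emr1 24.6- and 7.07-fold lower after Torin1, while Cd68 (0.55 and 0.69) and Mertk (0.34 and 0.89) had log2 ratios above 0 on both arrays.

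M1 BMDMs expressed nearly the whole list more strongly than M2 BMDMs. Of the 48 members 43 were 2-fold or more higher and 0 were lower, where 23.9% of all named genes well above background were higher and 26% lower. The median log2 ratio of the members was 3.19, against 0.03 for those genes, 25 members were at least 8-fold and 13 at least 32-fold higher. Of those genes 3.55% and 0.980% were. The M1 folds depended on the scaling: with each array set to its median all of them were 1.76 times smaller, the median of the members was 2.37 with 39 members higher, and 10.4% of those genes were higher and 44.4% lower. The 5 members that did not reach 2-fold were Ifnar1, Irf8, Samhd1, Eif2ak2 and Trim25, although other probes of Ifnar1, Samhd1 (1.12 on the log2 scale) and Trim25 (2.15) did. M1 held the highest normalized signal for 46 of the 48, the exceptions being Irf8 and Lgals3bp, whose highest value was in Torin1-treated BMDMs, while 38.1% of those genes were highest in M1.

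**Figure D1:**
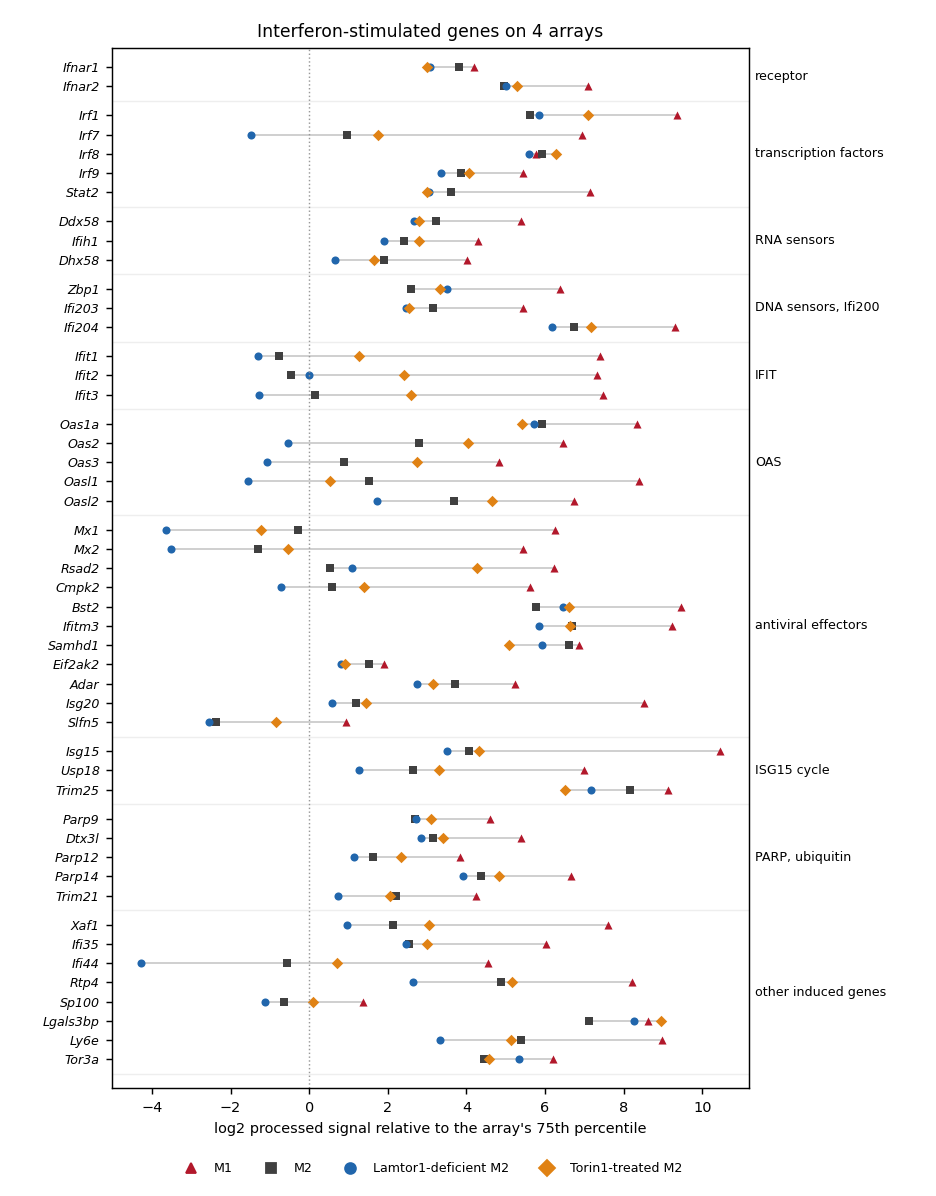
Normalized signal of the 48 members (log2 of the processed signal relative to the 75th percentile of the array, dotted line at 0), grouped by role, with 1 point for each array. M1 (triangles) lies farthest right for 46 of 48 and Lamtor1-deficient M2 (circles) farthest left for 34, where 38.1% and 17.1% of the named genes well above background are. Points are compared along a row and not between rows, since different probes differ in brightness.

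Lamtor1-deficient BMDMs went the other way. Of the 48 members 16 were 2-fold or more lower than in M2 and 1, Lgals3bp, was higher, while 7.34% and 7.1% of the named genes well above background were lower and higher. The ratio was below 0 for 39 members, and the median was -0.59, against 0.08 for those genes. The 16 were Irf7, Dhx58, Ifit3, Oas2, Oas3, Oasl1, Oasl2, Mx1, Mx2, Cmpk2, Usp18, Trim21, Xaf1, Ifi44, Rtp4 and Ly6e. Dhx58 (-1.24) and Xaf1 (-1.19) stood just inside the 2-fold limit, and Trim25 (-0.99), Adar (-0.96) and Ifitm3 (-0.84) just outside it. On the higher side Lgals3bp (1.13) stood just inside, and Zbp1 (0.92) and Tor3a (0.88) just outside. In bulk RNA, fewer cells of a type and less RNA per cell cannot be told apart.

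Torin1 did not give the same picture. Of the 48 members 10 were 2-fold or more higher than in M2, namely Irf1, Ifit1, Ifit2, Ifit3, Oas2, Oas3, Rsad2, Slfn5, Ifi44 and Lgals3bp, beside 11.5% of the named genes well above background. The 2 that were 2-fold lower were Samhd1 and Trim25, beside 12.8% of those genes, and with each array set to its median 10 members were higher and 5 lower, beside 7.68% and 17.9% of those genes. The median log2 ratio was 0.40, against 0.00, and 33 members were above 0. The share of members that were higher, 20.8%, was therefore above the background, and the share that were lower, 4.17%, below it. Oasl2 (0.96), Xaf1 (0.92), Bst2 (0.86), Cmpk2 (0.83), Irf7 (0.79) and Mx2 (0.76) stood just outside the limit on the higher side, and Oasl1 (-0.99), Mx1 (-0.94) and Ifnar1 (-0.82) on the lower side. Those last 3 were the members added to the lower calls by the array median.

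**Figure D2:**
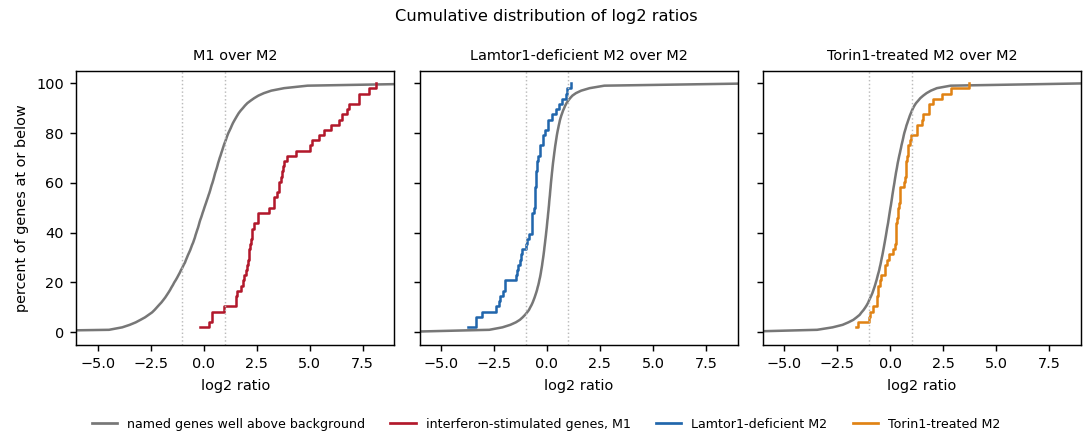
Cumulative percent of genes (vertical axis) at or below each log2 ratio (horizontal axis) for the 48 members (coloured steps) and for 12853 named genes well above background on all arrays (grey), with 2-fold marked by dotted lines. The members lie to the right of the grey curve in M1 (medians 3.19 and 0.03), to its left in Lamtor1-deficient M2 (-0.59 and 0.08) and slightly to its right in Torin1-treated M2 (0.40 and 0.00).

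The M2 array is the denominator for both IL-4 comparisons, so the values are given side by side and the Torin1-treated and Lamtor1-deficient arrays were also set against each other without it. There, 23 members were 2-fold or more higher after Torin1 and 0 were higher in the mutant, where 9.66% and 12.2% of the named genes well above background were, and the median log2 ratio was 0.95, against -0.09. Torin1 was the higher of the pair for 41 of 48 members (85.4%), against 44.9% of those genes. Relative to M2, 4 members passed 2-fold in opposite directions, 12 were lower only after Lamtor1 loss, 5 were higher only after Torin1, 2 were lower only after Torin1, 1 was higher after both, 0 were lower after both and 24 stayed within 2-fold. Of the named genes well above background, 1.00% passed 2-fold in opposite directions, 2.30% were lower only after Lamtor1 loss, 7.59% higher and 7.76% lower only after Torin1, 3.36% higher and 4.54% lower after both, and 70.2% stayed within 2-fold. The order M1, Torin1, M2, Lamtor1-deficient from high to low held for 23 of the 48 members (47.9%) and for 7.56% of the named genes well above background.

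**Figure D3:**
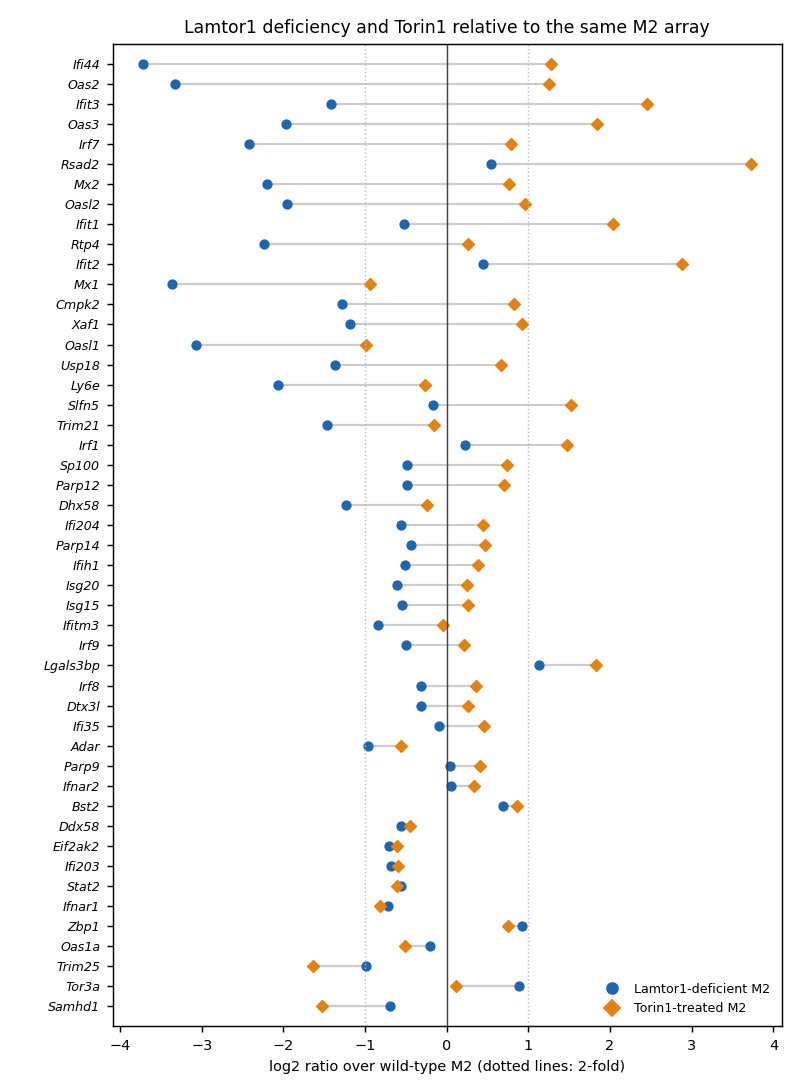
Log2 ratio over the wild-type M2 array (horizontal axis, dotted lines at 2-fold) for Lamtor1-deficient M2 (circles) and Torin1-treated M2 (diamonds). The 48 members are sorted by the log2 ratio of Torin1-treated over Lamtor1-deficient M2, highest at the top. Ifi44, Oas2, Ifit3 and Oas3 at the top lie past 2-fold on opposite sides of 0, and the widest gap is that of Ifi44 (-3.72 and 1.27). With normexp background correction the gap of Oas2 is wider than that of Ifi44.

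The receptor was not the part of the pathway that varied most. Normalized signal of Ifnar1, the subunit that binds Tyk2, was 18.4 in M1, 13.9 in M2, 8.46 in the Lamtor1-deficient and 7.91 in the Torin1-treated culture. Ifnar2, the subunit that binds Jak1, had 137, 31.1, 32.2 and 39.3 on the same arrays. Ifnar2 was thus 4.41-fold higher in M1 and close to level among the IL-4 cultures, while Ifnar1 was lower by 0.72 and 0.82 on the log2 scale after Lamtor1 loss and Torin1, short of 2-fold. The other 2 probes of Ifnar1 gave log2 ratios of 2.46 and 2.27 for M1 over M2 where the chosen probe gave 0.40, and -0.93 and -1.23 after Torin1, so the M1 value and the 2-fold call after Torin1 depended on the probe.

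Among the transcription factors, Irf7, the factor that amplifies interferon-α production, had the widest range. Its normalized signal was 124 in M1, 1.93 in M2, 0.360 in the Lamtor1-deficient and 3.35 in the Torin1-treated culture. M1 stood 64.0-fold above M2 and the mutant 5.38-fold below it, which left Torin1 9.31-fold above the mutant. Irf1, a factor induced by IFN-γ as well as by interferon-β, had 653, 49.2, 57.4 and 137, high in M1 and 2.78-fold higher with Torin1 but level in the mutant (1.17-fold).

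Irf9, the DNA-binding part of the complex with Stat2, had 43.1 in M1, 14.4 in M2, 10.2 in the Lamtor1-deficient and 16.7 in the Torin1-treated culture, and only M1 differed by 2-fold. Stat2 had 142, 12.2, 8.24 and 8.01, an 11.7-fold step between M1 and M2 with both other cultures below M2 by less than 2-fold. Irf8, a factor of the myeloid lineage, had 54.2, 60.1, 48.3 and 77.1 and differed least of the group. Among the IL-4 cultures Irf9, Stat2 and Irf8 thus stayed within 2-fold of M2, and Irf7 did not.

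The cytosolic sensors were moderately higher in M1, by 3.67- to 4.48-fold for the RNA sensors. Ddx58, which encodes RIG-I, had a normalized signal of 42.2 in M1, 9.42 in M2, 6.36 in the Lamtor1-deficient and 6.87 in the Torin1-treated culture. Dhx58, which encodes the related helicase LGP2, had 16.1, 3.71, 1.57 and 3.15, 2.36-fold lower in the mutant than in M2. Ifih1, which encodes MDA5, stayed within 2-fold in both IL-4 comparisons.

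Zbp1, a sensor of Z-form nucleic acids, had 82.5 in M1, 6.01 in M2, 11.4 in the Lamtor1-deficient and 10.1 in the Torin1-treated culture, and was 1 of 9 members (18.8%) above M2 in both other IL-4 cultures, a pattern of 34.0% of the named genes well above background. A second Zbp1 probe gave a log2 ratio of 2.61 for Torin1 where the chosen one gave 0.75, so its size was not settled. Ifi204, a DNA-binding member of the Ifi200 family, had 632, 106, 72.5 and 144. Its relative Ifi203 was 4.89-fold higher in M1, and both were within 2-fold of M2 otherwise by the chosen probes. Other probes of Ifi203 gave -0.49, -0.58 and -1.02 in the mutant, and 0.30, -0.39 and -0.89 after Torin1 where the chosen one gave -0.60. For Ifi204 the other probe gave -0.36 after Torin1 where the chosen one gave 0.44. The direction of Ifi204 after Torin1 was thus not settled, and the Ifi203 probes did not all go the same way. The Ifi200 genes are close relatives, and probes may not separate them fully.

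The 3 Ifit genes, whose products bind viral RNA and hinder its translation, were among the members with the largest steps in M1 and were all higher with Torin1 than in M2. Ifit1 had a normalized signal of 168 in M1, 0.591 in M2, 0.409 in the Lamtor1-deficient and 2.42 in the Torin1-treated culture. Ifit2 had 159.8, 0.726, 0.991 and 5.34 on the same arrays. Ifit3 had 177, 1.102, 0.414 and 6.01. M1 was far above all IL-4 cultures for each of them, by 284-, 220.1- and 161-fold over M2, and Torin1 stood 4.09-, 7.36- and 5.45-fold over M2. Of the 3, only Ifit3 was 2-fold lower in the mutant (2.66-fold), and Ifit2 was 1.37-fold higher there. Their probes lie side by side on chromosome 19 (mm9), at chr19:34723796-34723855, chr19:34650244-34650303 and chr19:34663105-34663164, and the array annotation does not say which part of the transcript they cover.

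The oligoadenylate synthetase family is known for enzymes that make the messenger that activates RNase L. Its 5 listed members were the group with the lowest median in the mutant, a log2 ratio of -1.97. Of these, 4 were 2-fold lower (7.34% of the named genes well above background). Other genes of the family, in the further list of interferon-induced genes below, were mixed in the mutant. Oas1c was 2.38-fold lower than in M2, while Oas1b and Oas1g were 1.505- and 1.12-fold higher. Oas2 had a normalized signal of 87.8 in M1, 6.88 in M2, 0.685 in the Lamtor1-deficient and 16.4 in the Torin1-treated culture. Oas3 had 28.2, 1.85, 0.472 and 6.65. Both genes were low in the mutant, by 10.0- and 3.92-fold, and higher after Torin1, by 2.39- and 3.59-fold, so Torin1 stood 23.9- and 14.1-fold over the mutant. Oasl1, which inhibits translation of Irf7, had 334, 2.85, 0.339 and 1.43, with both the mutant (8.42-fold) and Torin1 (1.99-fold) below M2.

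Oasl2 lay 3.88-fold below M2 in the mutant, with a log2 ratio of 0.96 after Torin1. Oas1a, in contrast to its neighbours Oas2 and Oas3 on chromosome 5 (mm9, chr5:121346735-121346794, chr5:121180343-121180402 and chr5:121203598-121203657), was within 2-fold of M2 in both, at -0.20 and -0.51 on the log2 scale. Several Oas1 genes are near-identical copies, so the Oas1a probe may detect more than 1 of them.

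Among the antiviral effectors, the Mx genes, which encode dynamin-like GTPases that trap viral nucleocapsids, had their lowest signals in the mutant. Mx1 had a normalized signal of 76.1 in M1, 0.820 in M2, 0.0795 in the Lamtor1-deficient and 0.428 in the Torin1-treated culture. Mx2 had 43.6, 0.406, 0.0883 and 0.688. The mutant was 10.3-fold and 4.60-fold below M2, and Torin1 5.39-fold and 7.80-fold above the mutant, within 2-fold of M2. These sizes depended on the background correction, since normexp gave log2 ratios of -2.26 and -1.20 for the mutant in place of -3.37 and -2.20, and 1.49 and 1.79 for Torin1 over the mutant in place of 2.43 and 2.96. RefSeq lists Mx1 as a transcribed pseudogene in this reference strain, so its probe reports transcription and not a functional protein.

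Rsad2, which encodes viperin, a radical SAM enzyme that blocks viral replication, had the highest ratio of all members after Torin1. Its normalized signal was 74.3 in M1, 1.45 in M2, 2.11 in the Lamtor1-deficient and 19.2 in the Torin1-treated culture, 13.3-fold over M2 after Torin1. Cmpk2, a nucleotide kinase encoded beside it on chromosome 12 (mm9 probes at chr12:27127859-27127918 for Rsad2 and chr12:27164119-27164178 for Cmpk2), followed another course. It was 2.43-fold lower in the mutant and 0.83 above M2 on the log2 scale after Torin1, where Rsad2 was at 0.54 and 3.73.

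Bst2, which encodes tetherin, had 699 in M1, 54.2 in M2, 87.3 in the Lamtor1-deficient and 98.2 in the Torin1-treated culture. It was 12.9-fold higher in M1 than in M2, 1.61-fold higher in the mutant and 1.81-fold higher after Torin1. Isg20, an exonuclease, had 368, 2.29, 1.50 and 2.72, a step of 161-fold in M1 with the IL-4 cultures within 2-fold of each other. Its second probe gave a log2 ratio of 1.02 for Torin1 over the mutant where the chosen one gave 0.85. Samhd1, which depletes deoxynucleotides, had 117, 97.5, 60.1 and 33.9. It was the lowest after Torin1, 2.88-fold below M2, but its second probe gave a log2 ratio of -0.15 for the same pair. Slfn5 had a log2 ratio of 1.53 after Torin1 and -0.17 in the mutant, while Ifitm3, Eif2ak2 and Adar were within 2-fold of M2 in both, Adar at -0.96 in the mutant. The second Adar probe gave log2 ratios of -0.94 for M1 and 0.83 for Torin1, against 1.53 and -0.57, so neither direction was settled for that gene.

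In the ISG15 cycle, in which the ubiquitin-like protein Isg15 is attached to targets and removed by Usp18, Isg15 and Usp18 were far higher in M1 than on the other arrays. Isg15 had a normalized signal of 1394 in M1, 16.7 in M2, 11.4 in the Lamtor1-deficient and 20.0 in the Torin1-treated culture. Usp18, which also restrains the interferon receptor, had 127, 6.24, 2.41 and 9.92. Isg15 was within 2-fold among the IL-4 cultures, and Usp18 was 2.59-fold lower in the mutant and 4.12-fold higher after Torin1 than in the mutant. Trim25, a ubiquitin ligase that activates RIG-I, had 559, 284, 143 and 91.4, lowest after Torin1 at 3.11-fold below M2. Its second probe was at 0.37 on the log2 scale after Torin1 where the first was at -1.64, so the lower value rested on 1 of 2 probes.

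The PARP and ubiquitin ligase genes were 3.74- to 4.94-fold higher in M1. Parp14, an ADP-ribosyltransferase, had 101 in M1, 20.5 in M2, 15.1 in the Lamtor1-deficient and 28.3 in the Torin1-treated culture. Trim21, a ligase that is also a cytosolic antibody receptor, had 19.1, 4.58, 1.66 and 4.12, and it was the 1 gene of the group below the limit in the mutant (2.77-fold). Parp9 and its partner Dtx3l, transcribed from opposite strands of the same locus on chromosome 16, differed from M2 by at most 0.41 on the log2 scale in the mutant and after Torin1 by the chosen probes, and the other 2 probes of Dtx3l gave 0.56 and 0.91 after Torin1.

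Ifi44, a cytosolic antiviral protein gene on chromosome 3 (mm9, chr3:151394035-151394094), gave the lowest ratio of the list in the mutant. Its normalized signal was 23.5 in M1, 0.681 in M2, 0.0518 in the Lamtor1-deficient and 1.64 in the Torin1-treated culture. The mutant was 13.1-fold below M2 and Torin1 2.41-fold above it, a distance of 31.7-fold between them. The mutant signal was dim, and with normexp background correction the log2 ratio was -2.23 in place of -3.72, no longer the lowest of the list, and Torin1 over the mutant was 3.37 in place of 4.99. Xaf1, a proapoptotic gene, had 194, 4.40, 1.93 and 8.31. Its second probe gave log2 ratios of 1.51 for M1 and -0.75 for Torin1 where the chosen one gave 5.47 and 0.92, so the size in M1 and the direction after Torin1 depended on the probe, while both were lower in the mutant (-1.52 and -1.19). Both Rtp4, a receptor transport protein, and Ly6e, a membrane protein that limits coronavirus entry, were 4.74- and 4.18-fold below M2 in the mutant with Torin1 within 2-fold. Lgals3bp, a secreted binding partner of galectin-3, had 396, 139, 304 and 493 and was the 1 member 2-fold higher in the mutant. Tor3a, an ATPase of the torsin family, had 73.9, 21.8, 40.2 and 23.7, and Ifi35 and Sp100 were 11.0- and 4.05-fold higher in M1 and within 2-fold of M2 in the others.

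Of 21 further probes of the members that were well above background, the sign of the log2 ratio was that of the chosen probe for 20 in M1, for 21 in the mutant and for 16 after Torin1. Their median absolute difference from the chosen probe was 0.86, 0.20 and 0.31 on the log2 scale. With the median over all probes of a gene, the M1 ratio of 7 of the 43 members past 2-fold (Irf1, Zbp1, Ifi203, Adar, Dtx3l, Xaf1 and Tor3a) moved by over 1.5 times.

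Interferon itself was detected clearly in M1. Ifnb1, which encodes interferon-β, was well above background in M1 alone, at least 1142-fold above M2. Of 17 interferon genes listed 14 had a probe, and of the 7 well above background on both arrays compared 1 was higher and 1 lower in M1, 0 and 1 in the mutant, and 0 and 1 after Torin1. The interferon-α probes were dim on all arrays, with Ifna11 well above background in M1 and Torin1 but not in M2, at least 4.73-fold and 1.89-fold higher, Ifna13 at 1.32 in M1 and Ifnab at -1.73 in the mutant and -1.11 after Torin1 on the log2 scale over M2. These genes are near-identical copies, and a probe of one can detect others. Of 13 genes of receptor signalling, 5 were higher and 4 lower in M1, 1 higher and 0 lower in the mutant, and 1 higher and 3 lower after Torin1, with medians of 0.83, -0.05 and -0.21. Beside the background of 23.9% higher and 26% lower in M1, 7.1% and 7.34% in the mutant and 11.5% and 12.8% after Torin1, these counts show no clear departure for a list of this size.

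Within that list Jak1 (0.83, 0.14 and 0.29 for M1, mutant and Torin1 over M2, log2) and Tyk2 (-1.22, -0.30 and -0.21), the kinases of the receptor, were within 2-fold of M2 in both IL-4 comparisons. The IFN-γ receptor chain Ifngr1 was at -1.39, -0.79 and -1.02 and its partner Ifngr2 at -0.25, 0.30 and 0.44. Socs1, the feedback inhibitor of this receptor family, had 60.4, 15.3, 9.64 and 3.42 and was 4.47-fold lower after Torin1. Socs3, an inhibitor that acts mainly on the IL-6 receptor family, was 383-fold higher in M1 and 3.34- and 2.65-fold higher in the mutant and after Torin1.

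Of the 16 genes of interferon induction 3 were higher and 5 lower in M1, near the background of 23.9% and 26%. In the mutant 0 were higher and 3 lower (background 7.1% and 7.34%), and after Torin1 0 and 4 (11.5% and 12.8%). The 3 lower in the mutant were Tlr4, Irf5 and Irf2, at 2.001-, 2.012- and 2.08-fold. All 3 stood just inside the 2-fold limit, so this count shows no firm excess over the background. Irf3, the factor that starts Ifnb1 transcription, was within 2-fold throughout (-0.75, -0.14 and 0.08). The largest differences were in Tlr4, the LPS receptor, 7.30-fold lower in M1, in Irf2, a repressor of interferon targets, 2.08-fold lower in the mutant, and in Tmem173, which encodes STING, 6.56-fold lower after Torin1.

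A further list of other genes known to be induced by type I interferon, 38 of 39 with a probe, gave a partly different picture. Counted where both arrays were well above background, 32 of 37 were higher and 0 lower in M1, 1 of 34 higher and 9 lower in the mutant, and 2 of 36 higher and 7 lower after Torin1, with medians of 2.78, -0.55 and -0.04. The background was 23.9% higher and 26% lower in M1, 7.1% and 7.34% in the mutant and 11.5% and 12.8% after Torin1. The higher genes in M1 and the lower genes in the mutant lay above it. After Torin1, on few genes, the higher share lay below the background and the lower share above it, the reverse of the members of the main list. Its largest differences among genes well above background on both arrays were those of Slfn1 in M1 (6.99), Fcgr1, which encodes a high-affinity Fc receptor, in the mutant (-4.96), and Ifitm6 after Torin1 (-4.82). The shift to higher values after Torin1 was therefore not seen in the median of this second list, whereas those of M1 and the mutant were.

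**Figure D4:**
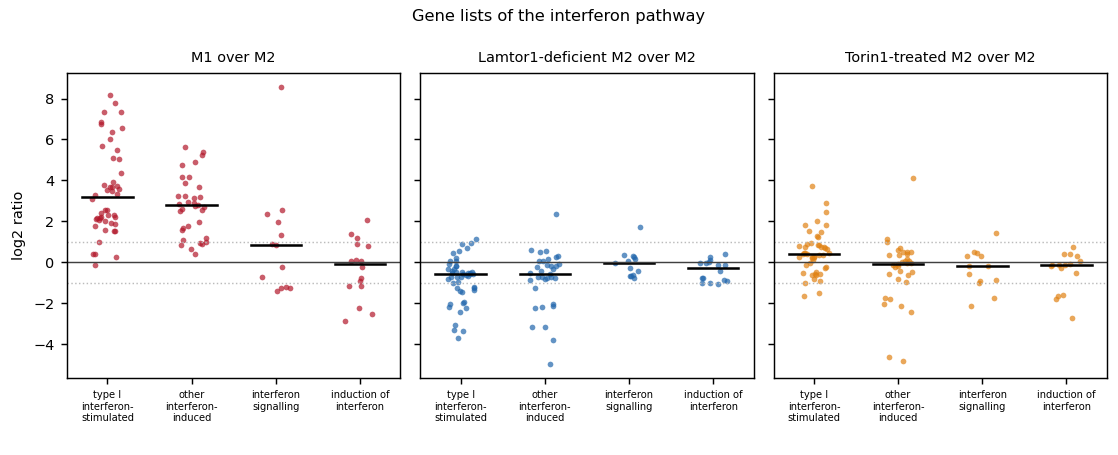
Log2 ratio over M2 (vertical axis) in the 3 comparisons for the 48 members, 34 other interferon-induced genes, 13 genes of receptor signalling and 16 of interferon induction, each well above background on all arrays; points are genes and black bars are medians. In M1 the members and the other induced genes lie high (medians 3.19 and 2.78), in Lamtor1-deficient M2 both lie below 0 (-0.59 and -0.55), and after Torin1 the members lie at 0.40 and the other induced genes at -0.07.

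Markers of other cells moved between the arrays too. Of 10 lymphocyte markers, 7 were well above background in the mutant culture and 4 on each other array, and Cd3d, Cd3g, Cd8a and the IFN-γ gene Ifng passed that mark in the mutant alone, at low processed signals of 35.0 to 84.9. Cd3e (-0.02) and Cd4 (-0.40), well above background on all arrays, were not higher in the mutant than in M2 on the log2 scale, and Cd79a was 3.58-fold lower. The summed normalized signal of these markers was 48.0, 22.5, 20.6 and 14.2 in M1, M2, mutant and Torin1-treated BMDMs. Neutrophil markers, 9 of 10 with a probe, summed to 103 in M2 and to 56.2, 24.9 and 31.2 in M1, mutant and Torin1, with 8 well above background on each IL-4 array and 5 in M1. Most of the sum outside M2 was Elane, which was higher on each of those arrays than in M2, and without it the sums were 90.6 in M2 and 4.45, 6.36 and 6.09 in M1, mutant and Torin1. Plasmacytoid dendritic cells are potent producers of interferon-α, and their 7 markers summed to 327, 147, 133 and 219, with 6, 6, 5 and 6 well above background and Siglech, the brightest, at 231, 96.7, 87.8 and 164. Not all of them followed it, since Cox6a2 was 16.9-fold lower after Torin1 and Klk1 6.32-fold higher in the mutant than in M2. The 8 fibroblast markers summed to 16.3, 43.7, 56.9 and 15.6, with 6, 8, 7 and 7 well above background. Col1a2 made up most of the sum in M2, while Dcn was 5.83-fold higher in M1, and Pdgfra, Dcn and Thy1 were 2.74-, 3.76- and 3.97-fold higher in the mutant. The part of these cells in the values of the interferon-stimulated genes was not tested.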

How the data were processed

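RNA of 4 BMDM cultures was hybridized to 1-colour Agilent arrays, 1 per condition. The authors deposited scanner intensity per spot, as the background-subtracted, trend-corrected processed signal of Feature Extraction, not normalized between arrays (version 10.7.3.1 in the file headers, 10.5.1.1 in the submitters' processing notes). A deposited series table holds intensity values of the same arrays. Control spots and the 170 to 226 outlier spots per array were left out, and spots of a probe averaged. Following the study's methods, signals under 1.0 were set to 1.0, divided by the 75th percentile over all probes and taken to log2, and 2-fold was the limit. With 1 array per condition no test was made. Depth was read as signal over background, and the lowest signal well above background was 15.7 to 21.6. A probe above background on only 1 array gives a bound against that signal ("at least"). Coordinates of probes follow the array annotation (mm9), and promoter sequences come from RefSeq (GRCm38.p6). All 48 members were found in the RefSeq gene table.

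The members and all gene lists were chosen with earlier results of these data known. Values on every array were given for the receptor and transcription factor members, the 5 largest rises and 5 largest falls in each comparison, the 2 members with the widest range in each role, and members past 2-fold in opposite directions. Of the other lists, Jak1, Tyk2, Ifnb1, Ifngr1, Ifngr2, Socs1, Irf3 and the largest change per comparison were named, and a few others after their values were seen. Some genes of these lists are not reported here. Alternatives were other scalings (array median, quantile normalization, percentile over detected probes), normexp background correction (offset 50), a floor, filters on dim probes, outlier spots kept, other probe rules, a 3-fold limit and the series table. Centring on the named genes well above background, and all alternatives for Torin1 over Lamtor1-deficient, were chosen after seeing the data. The procedure was run on simulated data with planted changes well past 2-fold and noise of the size of repeated spots. That run checks the arithmetic and not the variation between cultures. Software comprised limma 3.58.1 (R 4.3.3), and NumPy 2.4.6, pandas 2.3.3 and matplotlib 3.10.9 (Python 3.11.15).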

Additional observations from a re-analysis of the deposited data

How the results depend on the processing

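Under 12 alternatives, 39 of the 43 members 2-fold higher in M1, all 17 past 2-fold after Lamtor1 loss, 10 of the 12 after Torin1 and 19 of the 23 for Torin1 over Lamtor1-deficient stayed past 2-fold, and all of these calls kept their sign. Under at least 1 of the alternatives 2, 3, 6 and 8 further members passed 2-fold in these comparisons. The exceptions were Irf9, Adar, Lgals3bp and Tor3a in M1, Samhd1 and Trim25 after Torin1, and Irf1, Dhx58, Parp12 and Sp100 for Torin1 over Lamtor1-deficient. The floor and the filters on dim probes could not change a member, because every member was well above background on every array. They nevertheless count among the 12 and in the 152 values that follow. Of 152 recomputed counts and medians, 137 stayed within 1.5 times or the technical SD. With each array set to its median, the median of the members was 2.37 in M1 and 0.15 after Torin1, 5 members were lower after Torin1 (17.9% of the named genes well above background), and Torin1 over Lamtor1-deficient gave a median of 0.64 with 2 lower (21.0%). That scaling moved the median of the named genes well above background to -0.78 in M1 and -0.24 after Torin1, and the members stayed 3.15 and 0.39 above it; 10.4% of those genes were then higher and 44.4% lower in M1. Ifnar1, Samhd1 and Eif2ak2 in M1 and Irf9 and Tor3a after Torin1, within 2-fold, changed sign with it. Quantile normalization gave medians of 3.04 (M1), -0.68 (Lamtor1-deficient) and 1.05 (Torin1 over Lamtor1-deficient), the percentile over detected probes 1.11 for the last, and normexp correction 2.76 in M1. With the median over all probes of a gene, 1 member was lower after Torin1. A 3-fold limit left 0 higher and 10 lower after Lamtor1 loss and 6 higher and 1 lower after Torin1, beside 3.07%, 3.47%, 4.76% and 6.07% of those genes. No paired analysis was possible because each condition had 1 array and no test was made. The limits are the single culture per condition, dim signals near background for Mx1, Mx2 and Ifi44 in the mutant, genes whose probes disagree, and the different markers of other cells on the arrays.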
